A study of Mus musculus with 24 samples.

Results

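The insulin-like growth factor (IGF) system of mouse myoblasts was followed at the RNA level through 10 genes: the ligands *Igf1* and *Igf2*, the receptors *Igf1r* and *Igf2r*, and the binding proteins *Igfbp2* to *Igfbp7*. They were taken by name, 10 of the 55291 gene symbols in a count table. The table holds 24 RNA-seq libraries of C2C12 cells, an established mouse myoblast line, from 4 cell populations. The scr population carries a scrambled shRNA. The *Baf180* KD population carries an shRNA against *Pbrm1*, which encodes the PBAF subunit Baf180. The *Baf250a* KD population targets *Arid1a*, which encodes the BAF subunit Baf250a, and the *Brd9* KD population targets *Brd9* of the ncBAF complex. PBAF, BAF and ncBAF are forms of the SWI/SNF chromatin remodelling complex. All 4 populations were transduced with lentivirus and selected with puromycin, so each is a stable pool of cells. Each was grown for 48 h without added metal (NT), with 100 µM CuSO4 (Cu) or with 50 µM ZnSO4 (Zn), as 2 independent biological replicates in each of the 12 conditions. The sample labels give primary myoblasts and a lipofectamine knockdown instead, and a treatment tag in them goes against the sample titles, by which the libraries were grouped here.

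IGF1 and IGF2 bind the receptor tyrosine kinase encoded by *Igf1r*, which signals through the IRS adaptors to PI3K, AKT and mTOR and through SHC and GRB2 to the RAS pathway. The receptor encoded by *Igf2r*, also known as the mannose 6-phosphate receptor, clears IGF2 and delivers it to lysosomes. Most IGF outside cells is held by binding proteins, which proteases such as PAPP-A and HTRA1 cut to release the ligand. In skeletal muscle, IGF signalling is known for supporting both proliferation and differentiation of myoblasts, and differentiating C2C12 cells are known to raise their own *Igf2* and *Igfbp5*.

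The libraries held between 495778 and 75179394 counts (median 22158430). *Baf250a* KD Zn replicate 2 had the lowest total and stood apart, since the other 23 libraries had at least 12719173 counts. Results on the 10 genes that rest on it are given with and without it, except those under other settings. The latter, such as the correction for GC content and length, were run only with this library included. The targeted transcript lay below all scr libraries in 6 of 6 libraries of its own KD population for *Pbrm1*, *Arid1a* and *Brd9*. All 6 myoblast markers checked were above 1 CPM (counts scaled to library size) at the median of the scr population, and their summed level ran from 2180 to 3199 CPM in scr, 1511 to 1724 CPM in *Baf180* KD, 1094 to 1270 CPM in *Baf250a* KD and 1537 to 1866 CPM in *Brd9* KD. They did not move together: in the same order of populations the medians were 92.7, 110, 134 and 80.9 CPM for *Myod1*, 169, 45.6, 38.4 and 97.7 CPM for *Myf5*, 2043, 1111, 864 and 1225 CPM for *Des*, 363, 295, 145 and 274 CPM for *Cdh15*, 5.04, 28.4, 9.60 and 2.88 CPM for *Myog* and 1.43, 3.07, 0.807 and 3.53 CPM for *Pax7*. Of 8 fibroblast or mesenchymal markers, *Col1a1* had median levels of 33.6 CPM in scr, 384 CPM in *Baf180* KD, 2241 CPM in *Baf250a* KD and 63.7 CPM in *Brd9* KD, and the summed level of the list ran from 857 to 1169 CPM, 2001 to 2447 CPM, 4929 to 6797 CPM and 1079 to 1433 CPM. In each population 5 of these 8 markers had a median above 1 CPM, and *Thy1*, *Lum* and *Dpt* were below 1 CPM in every library. Macrophage, Schwann cell and adipocyte lists summed to at most 6.22, 0.653 and 0.787 CPM in any library, and the endothelial list to at most 5.57 CPM. In bulk RNA, a change in the number of cells of one kind and a change in RNA per cell cannot be told apart.

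The 10 genes spanned a wide range of levels. To compare genes, CPM were divided by the length of the gene's exons in kilobases. In scr cells *Igfbp2* was the most abundant, at a median of 920 CPM per kb over 6 libraries, followed by *Igfbp5* at 279 CPM per kb. *Igfbp7* (57.7), *Igfbp6* (42.2), *Igf2r* (35.7) and *Igf1r* (7.96 CPM per kb) were intermediate. *Igfbp4* lay at 0.592 CPM per kb, and *Igf1*, *Igfbp3* and *Igf2* were at or near the limit of detection, with 0 to 22 counts in any scr library. The cell population accounted for between 48.6% (*Igfbp5*) and 98.3% (*Igfbp3*) of the variance of log2 CPM over the 24 libraries, and for *Igfbp5* the treatment held nearly as much, 48.3%. Without the shallow library the population held 47.6% and the treatment 49.1% of the variance of *Igfbp5*, and in the other 9 genes the population held more than the treatment either way. For *Igfbp4*, with few counts, differences between replicates made up 29%, or 11.7% without that library. The plot of levels by library shows these separations.

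**Figure D1:**
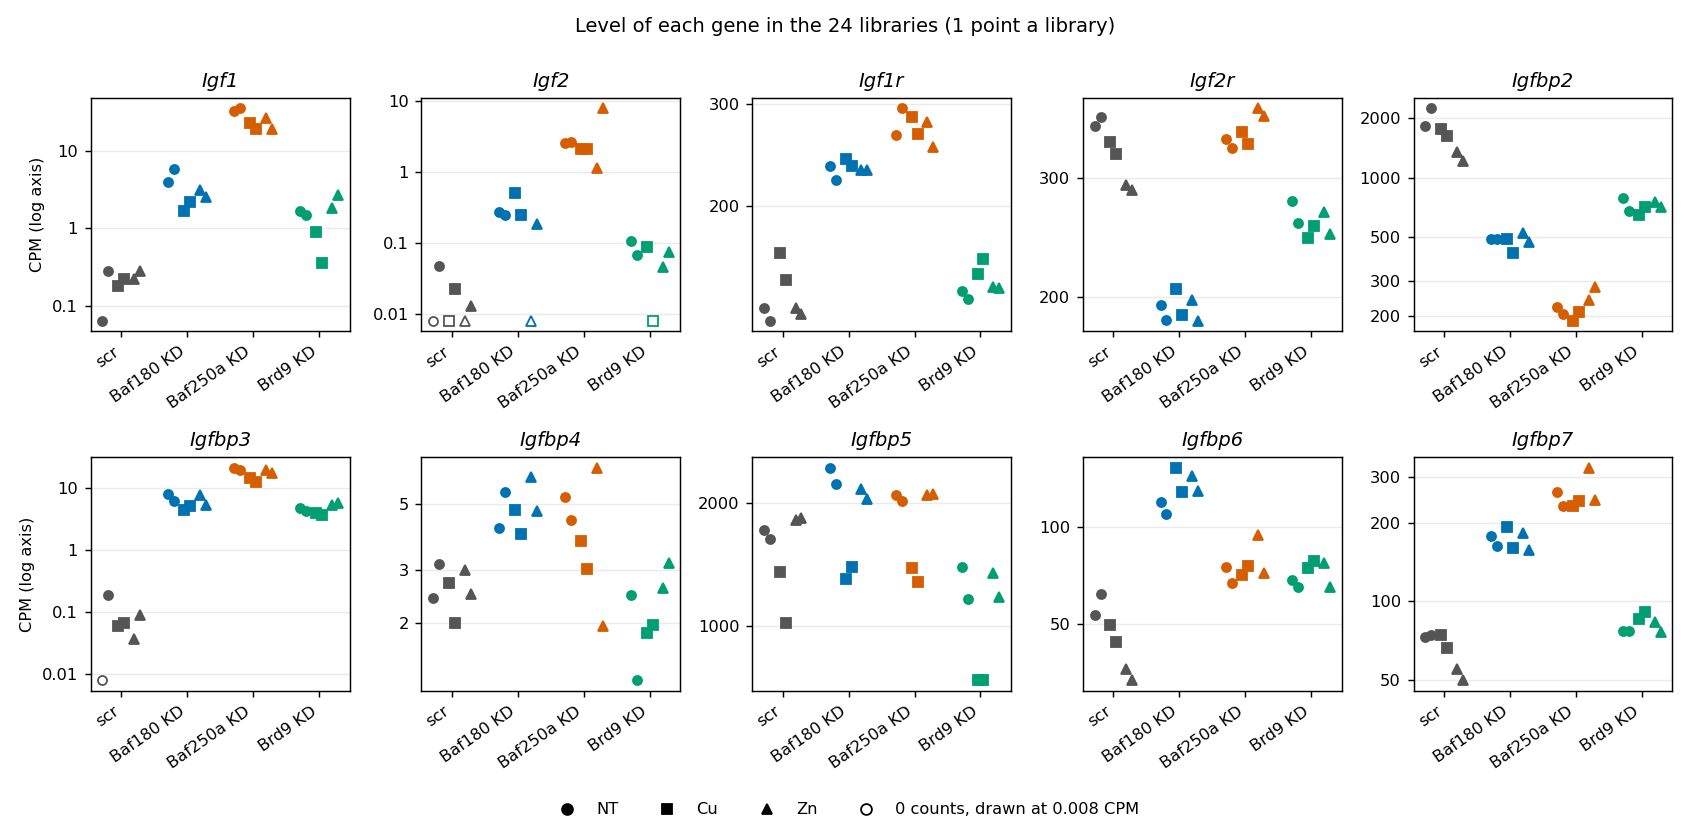
Level of each of the 10 genes (TMM-scaled CPM, log axis) in each of the 24 libraries, by cell population and treatment; each point is 1 library, and libraries with 0 counts are drawn at 0.008 CPM. *Igf1* ran from 0.0637 CPM in a scr library to 35.5 CPM in a *Baf250a* KD library, and *Igfbp2* was highest in the scr libraries.

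*Igf1*, which encodes the growth hormone-regulated ligand (GRCm38 chr10:87858265-87937042, plus strand), was lowest in scr cells and highest in *Baf250a* KD cells. Without added metal it was at 0.0637 and 0.279 CPM in scr (1 and 6 counts), at 3.94 and 5.76 CPM in *Baf180* KD, at 32.7 and 35.5 CPM in *Baf250a* KD and at 1.69 and 1.48 CPM in *Brd9* KD. Every KD library lay above both scr libraries, and the 3 KD populations did not overlap each other without metal. With Zn, *Brd9* KD (1.85 and 2.72 CPM) overlapped *Baf180* KD (3.12 and 2.55 CPM). Without metal, 71.7%, 79.9% and 68.6% of all genes tested did not overlap between scr and *Baf180*, *Baf250a* and *Brd9* KD. Between 2 KD populations the share ran from 54.1% to 72.1%. These shares are for 2 libraries against 2. The share for separation over all 6 libraries of a population, described below for other genes, was not counted. Because scr gave only 7 counts in all, the rise is given as a ratio of scaled counts with its exact 95% interval, which covers counting error alone. The ratio was 26.0 (12.4 to 65.4) for *Baf180* KD, 181 (87.5 to 450) for *Baf250a* KD and 8.50 (3.86 to 22.1) for *Brd9* KD. The gene passed the count filter in these comparisons through the KD libraries, where it is high. No test of it against scr is given here, and its calls are not counted below. The ranking of the 3 KD populations does not involve scr and was tested without metal by the edgeR quasi-likelihood test. *Igf1* was higher in *Baf250a* KD than in *Baf180* KD by a log2 fold change of 2.78 (SE 0.16, adjusted p = 5.48e-07). It was lower in *Brd9* KD than in *Baf180* KD, with a value of -1.62 (SE 0.30, adjusted p = 0.00749). The mesenchymal markers took a similar order over the populations, *Pdgfrb* with medians of 40.9, 384, 728 and 138 CPM in scr, *Baf180*, *Baf250a* and *Brd9* KD. Their part in the *Igf1* levels was not tested.

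*Igf2*, the ligand of fetal growth (chr7:142650766-142666816, minus strand), had at most 1 count in any scr library. In *Baf250a* KD it was at 2.52 and 2.59 CPM without metal and at 2.11 and 2.06 CPM with Cu. With Zn, *Baf250a* KD replicate 1 had 1.11 CPM and the shallow replicate 2 had 7.78 CPM, which is 4 counts. *Baf180* KD ran from 0 to 0.499 CPM and *Brd9* KD from 0 to 0.105 CPM. The *Baf250a* KD libraries were thus above every library of the other populations. Without metal *Igf2* was 9.90 times higher (counting interval 5.46 to 19.7) in *Baf250a* KD than in *Baf180* KD, where each library had 6 counts, and 94.9 times higher (16.7 to 3778) than in scr, with 1 count. It passed the count filter in these comparisons through the *Baf250a* KD libraries, where it is high, and stayed under the filter between the other populations, so no test of it is given here. Of the exon bases of *Igf2*, 62.8% are shared on the same strand with the gene model *Gm49394*, so reads there may have been left uncounted and its level is uncertain. The imprinted noncoding neighbour *H19*, named here after its values were seen, was at 5142 ± 111 CPM in scr, 3575 ± 215 CPM in *Baf180* KD, 5223 ± 325 CPM in *Baf250a* KD and 3422 ± 182 CPM in *Brd9* KD without metal (SD, n = 2). It fell in *Baf180* KD (adjusted p = 0.00776) and *Brd9* KD (adjusted p = 0.00522), and its adjusted p in *Baf250a* KD was 0.864.

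The 2 receptors moved in different ways. *Igf1r*, the signalling receptor (chr7:67952827-68233668, plus strand), was at 134 and 127 CPM in untreated scr, at 235 and 222 CPM in *Baf180* KD, at 265 and 295 CPM in *Baf250a* KD and at 143 and 139 CPM in *Brd9* KD. The *Baf180* and *Baf250a* KD libraries lay above scr without overlap, while *Brd9* KD lay just above it. The log2 fold change against scr was 0.83 (SE 0.10, adjusted p = 7.10e-05) in *Baf180* KD, 1.10 (SE 0.10, adjusted p = 1.82e-06) in *Baf250a* KD and 0.13 (SE 0.09, adjusted p = 0.320) in *Brd9* KD. In the presence of Cu, *Igf1r* had log2 fold changes of 0.58, 0.83 and -0.01 for the same 3 KD populations, and in the presence of Zn 0.75, 1.04 (also 1.04 without the shallow library) and 0.11. The first 2 passed the test under each metal and the third did not. The call in *Baf180* KD with Cu was lost without *Baf180* KD Cu replicate 1 (0.56, adjusted p = 0.0856).

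*Igf2r*, the clearance receptor (chr17:12682406-12769664, minus strand), showed another order, with *Baf180* KD lowest. Untreated scr cells had 359 and 369 CPM, *Baf180* KD 195 and 185 CPM, *Baf250a* KD 343 and 333 CPM and *Brd9* KD 278 and 258 CPM. All 6 *Baf180* KD libraries, treated or not, lay between 184 and 205 CPM, below the range of each other population. It fell by 0.93 on the log2 scale in *Baf180* KD (SE 0.10, adjusted p = 2.80e-05) and by 0.43 in *Brd9* KD (SE 0.09, adjusted p = 0.0104). The call in *Brd9* KD was lost without *Brd9* KD NT replicate 1 (adjusted p = 0.0577) or replicate 2 (adjusted p = 0.114). In *Baf250a* KD the log2 fold change was -0.11 (SE 0.10, adjusted p = 0.358) without metal and 0.38 (SE 0.12, adjusted p = 0.00520) with Zn, where scr had only 294 and 288 CPM. Without the shallow library the latter was 0.35 (adjusted p = 2.94e-08), and its call was lost without scr Zn replicate 1 (adjusted p = 0.352) or replicate 2 (adjusted p = 0.373) and with DESeq2 (adjusted p = 0.130). After correcting for GC content and length the value without metal was -0.27, which passed the test (adjusted p = 0.00408), and the value with Zn was 0.16, which did not (adjusted p = 0.191). *Insr*, the insulin receptor, which can pair with the IGF1 receptor in hybrids, fell in the 3 KD populations, with log2 fold changes of -0.59, -0.48 and -0.42 (adjusted p = 0.00122, 0.00196 and 0.0207).

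The binding proteins include both the most and nearly the least abundant of the 10 genes. The 250 bases before a RefSeq start site are printed for *Igfbp2*, *Igfbp3* and *Igfbp5*. *Igfbp2* lost the most RNA in the KD populations, *Igfbp3* appeared in them from near 0, and *Igfbp5* moved with Cu. The stretches are given since SWI/SNF complexes act on regulatory DNA and the metal-responsive factor MTF1 binds metal response elements. The sequences are from RefSeq (GRCm38.p6), each on the strand of its gene, and capitals mark E-boxes (CANNTG, the motif of MyoD-type factors) and cores of the metal response element (TGCACNC or TGCGCNC), searched on both strands. The *Igfbp2* stretch is chr1:72824230-72824479 (plus strand), the *Igfbp3* stretch chr11:7213924-7214173 (minus strand) and the *Igfbp5* stretch chr1:72874885-72875115 (minus strand), where 19 exon bases next to the start site were left off.
Igfbp2: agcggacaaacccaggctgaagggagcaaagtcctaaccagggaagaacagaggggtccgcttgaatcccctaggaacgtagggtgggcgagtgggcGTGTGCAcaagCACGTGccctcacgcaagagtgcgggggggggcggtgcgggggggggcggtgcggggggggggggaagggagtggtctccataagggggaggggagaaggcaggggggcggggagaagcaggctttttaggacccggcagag
Igfbp3: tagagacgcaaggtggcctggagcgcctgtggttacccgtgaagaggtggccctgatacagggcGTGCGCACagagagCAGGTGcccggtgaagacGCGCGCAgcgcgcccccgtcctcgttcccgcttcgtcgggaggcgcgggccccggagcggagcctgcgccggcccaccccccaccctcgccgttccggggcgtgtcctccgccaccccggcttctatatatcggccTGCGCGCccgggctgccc
Igfbp5: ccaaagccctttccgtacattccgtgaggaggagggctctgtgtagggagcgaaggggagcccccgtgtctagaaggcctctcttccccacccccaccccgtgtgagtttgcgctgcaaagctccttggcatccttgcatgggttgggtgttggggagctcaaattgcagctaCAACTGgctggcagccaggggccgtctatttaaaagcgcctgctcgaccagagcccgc
The *Igfbp2* stretch holds 1 E-box and 1 core with A, the *Igfbp3* stretch 1 E-box and 4 cores with G, of which some overlap, and the *Igfbp5* stretch 1 E-box and no core. Of 32851 such windows in the genome, 66.2% hold an E-box, 10.4% the core with A and 12.5% the core with G. These matches describe the letters alone. The *Igfbp3* window had 32 CpG and the printed *Igfbp2* window 14, against a median of 6 over all windows. *Igfbp2* has another RefSeq window, chr1:72825137-72825386, which is not printed and holds 1 E-box, no core and 11 CpG. The *Igfbp7* window held none of the motifs searched, which also included the AP-1 site TGANTCA and the box TATAAA. *Igfbp2* and *Igfbp5* lie next to each other on chromosome 1, with 5457 bases between them and opposite strands.

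*Igfbp2*, which encodes a binding protein with an integrin-binding motif (chr1:72824503-72852474, plus strand), was lower in every KD population. It was at 1832 and 2246 CPM in untreated scr, at 489 and 491 CPM in *Baf180* KD, at 221 and 203 CPM in *Baf250a* KD and at 787 and 676 CPM in *Brd9* KD. The 4 populations did not overlap under any treatment. All 24 libraries gave the order scr, *Brd9* KD, *Baf180* KD and *Baf250a* KD. Levels ran from 1221 to 2246 CPM in scr and from 189 to 280.0 CPM in *Baf250a* KD (at most 240 CPM without the shallow library). How many of all genes separate in this way over all libraries was not counted. The log2 fold change without metal was -2.04 (SE 0.13, adjusted p = 3.56e-07) in *Baf180* KD, -3.26 (SE 0.12, adjusted p = 3.08e-10) in *Baf250a* KD and -1.46 (SE 0.12, adjusted p = 1.97e-04) in *Brd9* KD. With Cu these values were -1.92, -3.08 and -1.34. With Zn they were -1.42, -2.34 and -0.84, and the *Baf250a* KD value was -2.46 without the shallow library. All 9 passed the test.

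*Igfbp3*, the main carrier of IGF in serum and a gene common in fibroblasts (chr11:7206086-7213923, minus strand), had 0 to 7 counts in each scr library. Without metal *Baf180* KD had 7.98 and 6.01 CPM, *Baf250a* KD 20.9 and 19.3 CPM and *Brd9* KD 4.75 and 4.18 CPM, against 0 and 0.186 CPM in scr. All 18 KD libraries, from 3.60 to 20.9 CPM, lay above all 6 scr libraries. The ratio of scaled counts to scr was 64.7 (counting interval 25.0 to 239) in *Baf180* KD, 188 (73.0 to 690) in *Baf250a* KD and 41.9 (16.0 to 156) in *Brd9* KD, from 4 counts in the 2 scr libraries. Among the KD populations, *Baf250a* KD exceeded *Baf180* KD by 1.51 on the log2 scale (SE 0.14, adjusted p = 1.74e-05), and *Brd9* KD differed from *Baf180* KD by -0.65 (SE 0.21, adjusted p = 0.0752). The latter passed the threshold without *Baf180* KD NT replicate 2 (-0.81, adjusted p = 0.0357) and with a laxer count filter (adjusted p = 0.0197). As for *Igf1*, the mesenchymal markers were also highest in *Baf250a* KD, *Col3a1* at a median of 2845 CPM against 864 CPM in scr, and their part was not tested. *Dcn*, another gene of that list, had medians of 2.16, 5.13, 17.6 and 2.92 CPM in scr, *Baf180*, *Baf250a* and *Brd9* KD.

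Without added metal, *Igfbp6* and *Igfbp7* rose in *Baf180* and *Baf250a* KD cells. *Igfbp6*, whose product prefers IGF2 (chr15:102144362-102149511, plus strand), was at 53.5 and 61.9 CPM in untreated scr, 119 and 109 CPM in *Baf180* KD, 75.1 and 67.3 CPM in *Baf250a* KD and 68.3 and 65.4 CPM in *Brd9* KD. *Baf180* KD was the highest, with all 6 of its libraries between 109 and 152 CPM and above all others. Against scr, the log2 fold change was 1.00 in *Baf180* KD (SE 0.11, adjusted p = 3.97e-05), 0.30 in *Baf250a* KD (SE 0.11, adjusted p = 0.0385) and 0.23 in *Brd9* KD (SE 0.11, adjusted p = 0.148). The *Baf250a* KD call was lost without scr NT replicate 1 (0.20, adjusted p = 0.0807), *Baf250a* KD NT replicate 1 (0.20, adjusted p = 0.351) or replicate 2 (0.38, adjusted p = 0.0866) and with DESeq2 (0.31, adjusted p = 0.0618). After correcting for GC content and length the *Baf250a* KD value became 0.68 (adjusted p = 7.42e-06) and the *Brd9* KD value 0.54 (adjusted p = 0.00139). With Cu the values of *Igfbp6* were 1.57, 0.67 and 0.69 in *Baf180*, *Baf250a* and *Brd9* KD. With Zn they were 1.90, 1.39 (1.40 without the shallow library) and 1.00. Each passed the test, those of *Brd9* KD with adjusted p = 0.00696 and 1.67e-04. The calls with Cu were lost without *Baf250a* KD Cu replicate 2 (0.62) and without *Brd9* KD Cu replicate 1 (0.72) or replicate 2 (0.65).

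*Igfbp7*, which encodes a secreted protein of low IGF affinity (chr5:77349240-77408041, minus strand), was at 73.0 and 74.6 CPM in untreated scr, 178 and 163 CPM in *Baf180* KD, 263 and 232 CPM in *Baf250a* KD and 77.2 and 77.3 CPM in *Brd9* KD. Over all treatments, no KD library overlapped a library of another population, in the order *Baf250a* KD, *Baf180* KD, *Brd9* KD and scr. The share of all genes that separate in this way was not counted. Its log2 fold change was 1.22 in *Baf180* KD (SE 0.10, adjusted p = 3.67e-06), 1.74 in *Baf250a* KD (SE 0.11, adjusted p = 3.29e-08) and 0.08 in *Brd9* KD (SE 0.10, adjusted p = 0.550). After correcting for GC content and length the *Brd9* KD value was 0.35 (adjusted p = 0.0182). With Cu the values of *Igfbp7* were 1.31, 1.77 and 0.31 in *Baf180*, *Baf250a* and *Brd9* KD. With Zn they were 1.64, 2.55 (2.60 without the shallow library) and 0.58. Each passed the test except that of *Brd9* KD with Cu (adjusted p = 0.106), which passed after the same correction (0.32, adjusted p = 0.0320). The *Brd9* KD value with Zn had an adjusted p of 0.00139.

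*Igfbp5*, the binding protein that rises during myogenic differentiation (chr1:72857932-72874884, minus strand), moved less between the populations than its neighbour *Igfbp2*. Untreated scr had 1718 and 1635 CPM, *Baf180* KD 2441 and 2229 CPM, *Baf250a* KD 2098 and 2023 CPM and *Brd9* KD 1393 and 1167 CPM. The first 2 KD populations lay above scr and *Brd9* KD lay below it. With Cu the log2 fold changes against scr were 0.18, 0.20 and -0.70 in *Baf180*, *Baf250a* and *Brd9* KD. With Zn they were 0.14, 0.21 (0.15 without the shallow library) and -0.56. Of these main values only those of *Brd9* KD passed the test (adjusted p = 0.0301 and 0.00219). The call with Cu was lost without *Brd9* KD Cu replicate 1 (-0.71) or replicate 2 (-0.71). Without metal the log2 fold change was 0.49 in *Baf180* KD (SE 0.12, adjusted p = 0.00571), 0.30 in *Baf250a* KD (SE 0.10, adjusted p = 0.0185) and -0.37 in *Brd9* KD (SE 0.10, adjusted p = 0.0298). Leaving out *Baf250a* KD NT replicate 1 (0.25, adjusted p = 0.124) or replicate 2 (0.33, adjusted p = 0.0511) ended the second call, and leaving out *Brd9* KD NT replicate 2 ended the third (-0.29, adjusted p = 0.196).

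*Igfbp4*, an inhibitory binding protein cut by PAPP-A (chr11:99041244-99054392, plus strand), was scarce, at 2.42 and 3.16 CPM in untreated scr, 4.17 and 5.48 CPM in *Baf180* KD, 5.30 and 4.43 CPM in *Baf250a* KD and 2.48 and 1.28 CPM in *Brd9* KD. *Baf180* and *Baf250a* KD lay above scr and *Brd9* KD overlapped it. Relative to scr it had a difference of 0.80 on the log2 scale in *Baf180* KD (SE 0.27, adjusted p = 0.0351), 0.79 in *Baf250a* KD (SE 0.24, adjusted p = 0.0138) and -0.54 in *Brd9* KD (SE 0.35, adjusted p = 0.276). The first call was lost without scr NT replicate 1 (0.62, adjusted p = 0.101) or *Baf180* KD NT replicate 2 (0.54, adjusted p = 0.285), and the second without *Baf250a* KD NT replicate 1 (0.64, adjusted p = 0.148). DESeq2's Wald test called neither (adjusted p = 0.118 and 0.0764).

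**Figure D2:**
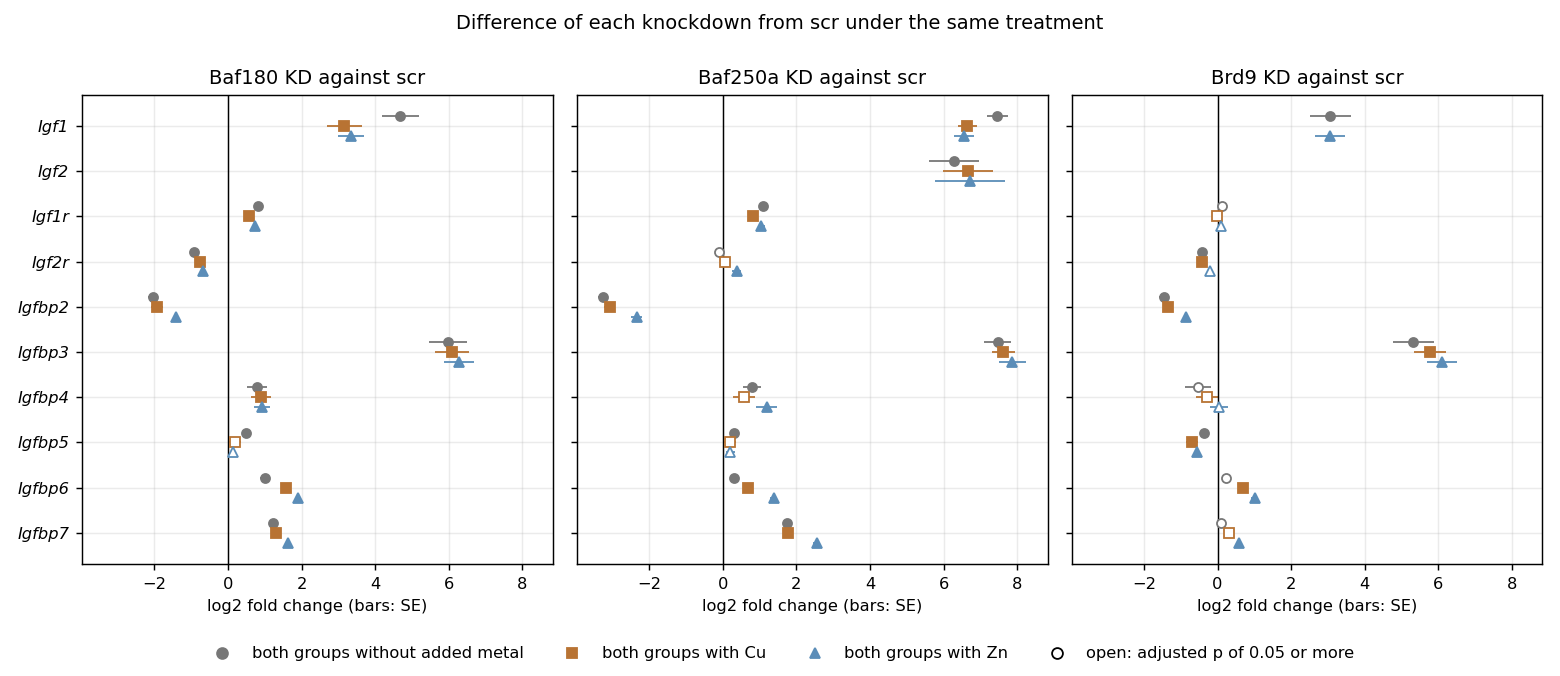
Log2 fold change of each gene in each KD population against scr (bars of 1 SE from edgeR) without metal, with Cu and with Zn. Open points did not pass the test, and genes under the count filter have no point. *Igf1*, *Igf2* and *Igfbp3* passed the filter through the KD libraries. *Igfbp2* lay below 0 in all 9 comparisons, from -0.84 to -3.26, and *Igfbp3* above 0 in all 9, from 5.32 to 7.87 (the latter 7.88 without the shallow library), where the scr libraries had 0 to 7 counts.

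Counts of calls are given for the 7 genes above the count filter in scr itself, since *Igf1*, *Igf2* and *Igfbp3* passed it through the KD libraries. Without metal, 7 of these 7 were called in *Baf180* KD (5 higher and 2 lower), where 41% of all genes tested were called (21.7% higher and 19.3% lower). In *Baf250a* KD 6 were called (5 higher and 1 lower) against 57.8% of all genes (28.9% in each direction), and in *Brd9* KD 3 were called, all lower, against 29.2% (15.1% higher and 14.1% lower). The count in *Baf250a* KD fell to 3 without *Baf250a* KD NT replicate 1, and that in *Brd9* KD was 1 without *Brd9* KD NT replicate 2 and 5 after correcting for GC content and length. The median log2 fold change over the 7 genes was 0.80, 0.30 and -0.37, where the median of all genes lay at 0.028, 0.0030 and 0.0096. With Cu the counts were 6, 4 and 4 against 24.9%, 41.2% and 12.2% of all genes, and with Zn 6, 6 and 4 against 49.9%, 57.5% and 23.2%. They include *Igfbp4* in *Baf180* KD with Cu (0.90) and in *Baf250a* KD with Zn (1.20), which DESeq2 did not call (adjusted p = 0.0931 and 0.605). The first was also lost after correcting for GC content and length (adjusted p = 0.0549). It was lost without *Baf180* KD Cu replicate 1 (0.75) or 2 (1.01) or scr Cu replicate 2 (0.67). The second was lost without scr Zn replicate 1 (1.19) or 2 (0.94) or *Baf250a* KD Zn replicate 1 (-0.50). Of the 4 in *Brd9* KD with Cu, only *Igfbp2* kept its call without *Brd9* KD Cu replicate 1 or replicate 2: the adjusted p became 0.436 and 0.425 for *Igf2r*, 0.275 and 0.336 for *Igfbp5*, and 0.0813 and 0.149 for *Igfbp6*. *Igfbp5* also passed in *Baf250a* KD with Zn when the shallow library was left out (0.15, adjusted p = 0.0295, against 0.21 and 0.158 with it). The 3 KD populations were compared with the same scr libraries, so their values are given side by side and not as separate support for each other.

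*Igfbp2*, *Igfbp5*, *Igfbp6* and *Igfbp7* made up nearly all binding protein RNA, and their proportions differed between the populations. As a share of the summed CPM per kb of the 6 binding proteins, *Igfbp2* held a median of 72.9% in scr, 54.4% in *Brd9* KD, 30.5% in *Baf180* KD and 16.5% in *Baf250a* KD. *Igfbp5* held 19% in scr, 28.1% in *Brd9* KD, 39.6% in *Baf180* KD and 43.4% in *Baf250a* KD. *Igfbp7* held 4.22% in scr and 30.3% in *Baf250a* KD. Without the shallow library the *Baf250a* KD shares were 15.7%, 41.5% and 32% for *Igfbp2*, *Igfbp5* and *Igfbp7*. The sum itself was 1218 CPM per kb in scr (1040.1 to 1607 over 6 libraries), 860 in *Baf180* KD (708 to 931), 734 in *Baf250a* KD (594 to 839, with a median of 706 without the shallow library) and 694 in *Brd9* KD (614 to 785). No KD library reached the lowest scr library. These sums and shares are descriptions over the 6 libraries of a population, without a test.

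**Figure D3:**
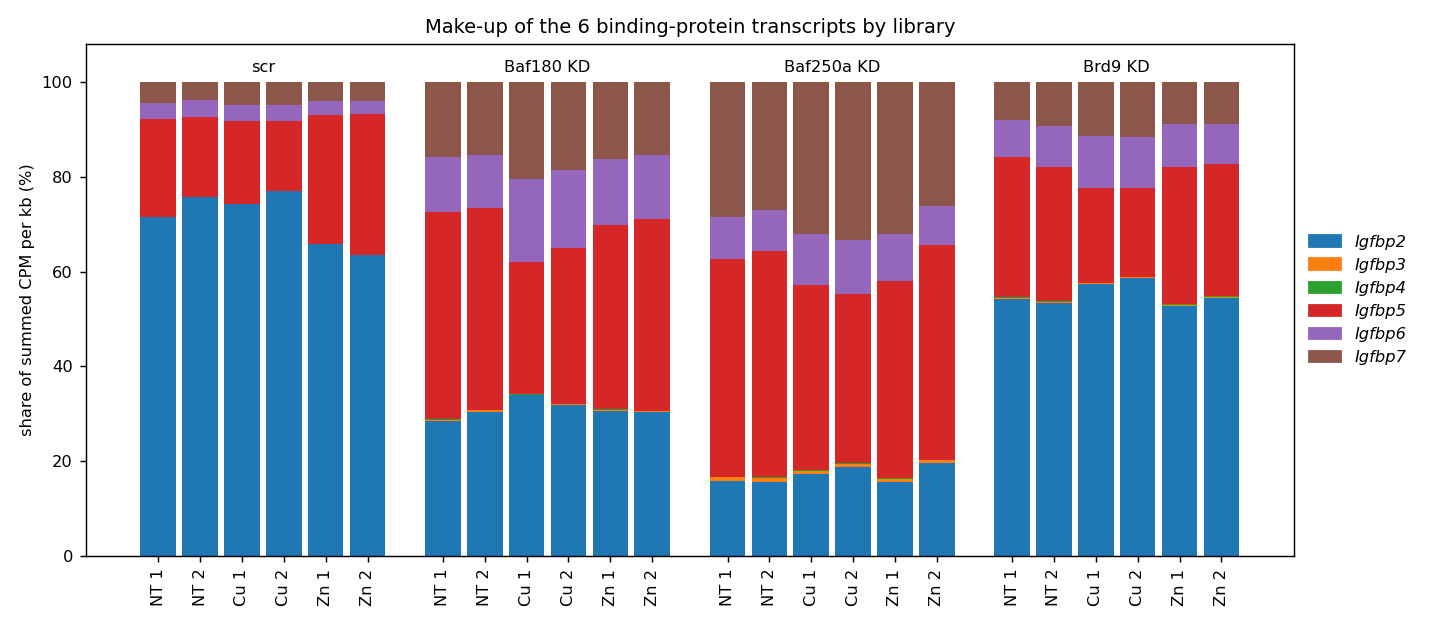
Share of each binding protein gene in the summed CPM per kb of *Igfbp2* to *Igfbp7* (percent), for each library, grouped by population. *Igfbp2* made up 63.5% to 76.9% in the scr libraries, and the part of *Igfbp5* and *Igfbp7* was larger in the *Baf180* and *Baf250a* KD libraries.

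The KD populations also differed from each other, in comparisons that leave scr out. Between *Baf250a* and *Baf180* KD, 5 of the 7 genes were called without metal, against 33.9% of all genes. *Igf2r* was higher in *Baf250a* KD by 0.82 (SE 0.07, adjusted p = 1.11e-05) and *Igfbp7* by 0.52 (SE 0.08, adjusted p = 7.09e-04), whereas *Igfbp2* was lower by a log2 fold change of -1.23 (SE 0.08, adjusted p = 1.24e-06) and *Igfbp6* by -0.70 (SE 0.08, adjusted p = 9.90e-05). *Igf1r* was higher by 0.27 (SE 0.08, adjusted p = 0.0183), a call lost without *Baf250a* KD NT replicate 2 (0.21, adjusted p = 0.184). Between *Brd9* and *Baf180* KD, 7 of 7 were called, against 14.6% of all genes. *Brd9* KD had more *Igf2r* (0.49) and *Igfbp2* (0.57), and less *Igf1r* (-0.70), *Igfbp4* (-1.34), *Igfbp5* (-0.87), *Igfbp6* (-0.78) and *Igfbp7* (-1.15) on the log2 scale. Between *Brd9* and *Baf250a* KD, 6 of 7 were called, against 47.5% of all genes, and *Igf1* was lower in *Brd9* KD by a log2 fold change of -4.39 (SE 0.17, adjusted p = 4.23e-14). *Igfbp6* did not pass there (-0.07, SE 0.09, adjusted p = 0.562).

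Cu lowered *Igfbp5* in the 3 KD populations. In *Baf180* KD it was at 1305 and 1399 CPM with Cu against 2441 and 2229 CPM without, in *Baf250a* KD at 1391 and 1281 CPM against 2098 and 2023 CPM, and in *Brd9* KD at 737 and 738 CPM against 1393 and 1167 CPM. The treated and untreated libraries did not overlap, which held for 60.4%, 45% and 53.5% of all genes tested in these populations. The log2 fold change was -0.82 (SE 0.10, adjusted p = 0.00413), -0.63 (SE 0.11, adjusted p = 0.00171, or 3.41e-06 without the shallow library in the fit) and -0.85 (SE 0.09, adjusted p = 0.0132). In scr the levels were 1354 and 1018 CPM with Cu, also below 1718 and 1635 CPM, and the value of -0.49 (SE 0.13) did not pass (adjusted p = 0.447, unadjusted p = 0.00645). It passed without scr Cu replicate 1 (-0.67, adjusted p = 0.0397) and when genes with at least 1 count were tested (adjusted p = 6.99e-05). The *Brd9* KD call was lost without *Brd9* KD Cu replicate 1 (adjusted p = 0.176), Cu replicate 2 (adjusted p = 0.0929) or NT replicate 1 (adjusted p = 0.0702). The Cu response of *Igfbp5* was not shown to differ from that of scr in any KD population: the differences were -0.29, -0.13 and -0.30 (adjusted p = 0.261, 0.844 and 0.361).

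Cu also lowered *Igf1* in *Baf180* KD, from 3.94 and 5.76 to 1.65 and 2.16 CPM (-1.38, SE 0.27, adjusted p = 0.0147), and in *Baf250a* KD, from 32.7 and 35.5 to 23 and 18.9 CPM (-0.69, SE 0.12, adjusted p = 0.00120). In *Brd9* KD, *Igf1* went from 1.69 and 1.48 to 0.905 and 0.356 CPM (-1.42, SE 0.46, adjusted p = 0.241), which passed when genes with at least 1 count were tested (adjusted p = 0.00895). The treated libraries lay below the untreated ones in each of these populations, where the shares of all genes without overlap are those given for *Igfbp5*. The *Baf180* KD call was lost without *Baf180* KD Cu replicate 1 (adjusted p = 0.120) or NT replicate 2 (adjusted p = 0.140) and after correcting for GC content and length (-0.86, adjusted p = 0.0699), and the *Baf250a* KD call with DESeq2 (adjusted p = 0.576) or with all 24 libraries in 1 fit (adjusted p = 0.230). *Igfbp3* fell in *Baf250a* KD by 0.57 on the log2 scale (SE 0.13, adjusted p = 0.0164), a call lost without Cu replicate 2 (adjusted p = 0.305) or NT replicate 1 (adjusted p = 0.177), with all 24 libraries in 1 fit (adjusted p = 0.346) and with DESeq2 (adjusted p = 0.99993). Without the shallow library in the fit, *Igf1* and *Igfbp3* kept their calls in *Baf250a* KD, at -0.69 (adjusted p = 1.63e-04) and -0.57 (adjusted p = 0.00390). Of the 7 genes above the filter in scr, 0 were called for Cu in scr against 0.0333% of all genes, though 3 had an unadjusted p under 0.05, and DESeq2 also called 0. In *Baf180*, *Baf250a* and *Brd9* KD, 1 gene was called in each, *Igfbp5*, against 13.8%, 1.27% and 0.274% of all genes. In *Baf180* KD a second gene passed without Cu replicate 2 (*Igfbp6*, 0.38, adjusted p = 0.0357) and after correcting for GC content and length (*Igfbp2*, -0.34, adjusted p = 0.0227).

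With Zn, 3 binding proteins fell in scr. In scr, *Igfbp2* was at 1353 and 1221 CPM with Zn against 1832 and 2246 CPM without, *Igfbp6* at 36.3 and 33.6 CPM against 53.5 and 61.9 CPM, and *Igfbp7* at 55.1 and 49.8 CPM against 73.0 and 74.6 CPM. None of these groups overlapped, which held for 72.3% of all genes tested in this comparison. The 3 genes fell, with log2 fold changes of -0.58 (SE 0.12, adjusted p = 0.0280), -0.64 (SE 0.10, adjusted p = 0.0275) and -0.41 (SE 0.09, adjusted p = 0.0315), 3 of the 7 against 17.6% of all genes (7.13% lower). Each call was lost without scr NT replicate 2 (adjusted p = 0.180, 0.177 and 0.184), Zn replicate 1 (0.131, 0.128 and 0.143) or Zn replicate 2 (0.225, 0.192 and 0.309), and that of *Igfbp7* also without NT replicate 1 (0.0600). The 3 genes are rich in GC, with 62.1%, 60.7% and 58.8% in their exons, and the scr libraries differed in how strongly counts followed GC content, with slopes of 0.108 and 0.318 (log2 per 10 percentage points of GC) without metal and -0.253 and -0.344 with Zn. After correcting for GC content and length the values were -0.16, -0.22 and -0.03 (adjusted p = 0.211, 0.131 and 0.867), so none of the 3 calls held.

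In the KD populations these 3 genes were not called lower. With Zn, *Igfbp6* was at 144 and 129 CPM in *Baf180* KD, 94.1 and 71.9 CPM in *Baf250a* KD and 77.5 and 65.2 CPM in *Brd9* KD, which overlapped or exceeded the untreated libraries. Of the 7 genes, 0 were called in *Baf180* KD against 0.0197% of all genes and 0 in *Brd9* KD against 0.0334%, and DESeq2 called 0 in both, leaving *Igfbp4* in *Baf180* KD without an adjusted p. In *Baf180* KD *Igfbp6* alone had an unadjusted p under 0.05, and in *Brd9* KD no gene had. In *Baf250a* KD *Igfbp6* was called (0.36, SE 0.11, adjusted p = 0.0244), 1 of 7 against 15.9%, but the groups overlapped. Without the shallow Zn replicate 2 it was 0.39 (adjusted p = 0.00412), and *Igfbp7* then also passed (0.38, adjusted p = 0.00223), as did *Igf1* (-0.38, adjusted p = 0.0385, against -0.40 and 0.0556 with it) and *Igf2* (-1.20, adjusted p = 0.0340, against -0.83 and 0.262). Without *Baf250a* KD Zn replicate 1 the *Igfbp6* value was 0.04 (adjusted p = 0.957), and it was 0.20 (adjusted p = 0.151) after correcting for GC content and length. Its call was also lost without *Baf250a* KD NT replicate 2 (adjusted p = 0.334), Cu replicate 1 (0.0801) or Cu replicate 2 (0.0813), with all 24 libraries in 1 fit (0.147), with DESeq2 (0.460) and when genes with at least 1 count were tested (0.0565).

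The difference of the Zn response between a KD population and scr was tested in 1 fit of all libraries. *Igfbp2*, *Igfbp6* and *Igfbp7* differed in *Baf180* KD by 0.69, 0.98 and 0.49, in *Baf250a* KD by 0.92, 1.05 and 0.76 and in *Brd9* KD by 0.66, 0.82 and 0.54 (adjusted p between 3.55e-04 and 0.0435). *Igf2r* differed in *Baf180* KD by 0.33 (adjusted p = 0.0287) and in *Baf250a* KD by 0.48 (adjusted p = 0.00343). These were 4, 4 and 3 of the 7 genes, all towards higher values in the KD, against 28.7%, 30.5% and 11.1% of all genes (16.1%, 17.3% and 5.86% in that direction), whose median difference was 0.094, 0.057 and 0.092. Without the shallow library the *Baf250a* KD differences were 0.84, 1.13 and 0.88 for *Igfbp2*, *Igfbp6* and *Igfbp7* and 0.49 for *Igf2r*, and each still passed the test. Without *Baf250a* KD Zn replicate 1, which leaves the shallow library alone, *Igf2r* (adjusted p = 0.0544), *Igfbp6* (0.114) and *Igfbp7* (0.159) lost their calls there. In *Brd9* KD all 3 calls were lost without scr NT replicate 2 (adjusted p = 0.218, 0.215 and 0.230), scr Zn replicate 1 (0.0626, 0.0582 and 0.0739), scr Zn replicate 2 (0.128, 0.117 and 0.191), *Brd9* KD NT replicate 2 (0.153, 0.126 and 0.171) or *Brd9* KD Zn replicate 1 (0.152, 0.150 and 0.209), and that of *Igfbp7* also without any of 9 other libraries (0.0528 to 0.0767). In *Baf180* KD, *Igf2r* and *Igfbp7* lost theirs without *Baf180* KD NT replicate 2 (0.134 and 0.134), *Baf180* KD Zn replicate 1 (0.150 and 0.173), *Baf250a* KD NT replicate 2 (0.0753 and 0.0580), scr NT replicate 2 (0.124 and 0.112) or scr Zn replicate 2 (0.114 and 0.150), and *Igf2r* also without scr Zn replicate 1 (0.0735), whereas *Igfbp2* and *Igfbp6* stayed past the threshold without each library. In a fit of the 12 libraries of the 2 populations, the calls of *Igf2r* (adjusted p = 0.104) and *Igfbp7* (0.0696) in *Baf180* KD and of *Igfbp2* (0.0551) and *Igfbp7* (0.0552) in *Brd9* KD were lost, as were those of *Igf2r* (0.346) and *Igfbp7* (0.0594) in *Baf180* KD when genes with at least 1 count were tested. Testing genes with a mean scaled count of at least 1 ended the same 2 calls (0.120 and 0.0782) and that of *Igfbp7* in *Brd9* KD (0.0779). After correcting for GC content and length, *Igfbp6* in *Baf180* KD (0.40, adjusted p = 0.0220), *Igfbp6* in *Baf250a* KD (0.50, adjusted p = 0.00567) and *Igf2r* in *Baf250a* KD (0.35, adjusted p = 0.0416) remained past the threshold. The corrected fit includes the shallow library and was not rerun without it. For Cu only *Igfbp6* in *Baf180* KD differed from scr (0.60, SE 0.16, adjusted p = 0.0235), 1 of 7 against 12.8% of all genes, a call lost without *Baf180* KD Cu replicate 1 (adjusted p = 0.159), *Baf180* KD NT replicate 2 (0.118), scr Cu replicate 2 (0.112) or scr NT replicate 2 (0.200) and after correcting for GC content and length (0.25, adjusted p = 0.202). In *Baf250a* and *Brd9* KD 0 of the 7 differed in their Cu response, against 0.0121% and 0.0363% of all genes, where *Igf1r* and *Igfbp6* in *Baf250a* KD and *Igfbp6* in *Brd9* KD had an unadjusted p under 0.05, and DESeq2 also called 0.

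**Figure D4:**
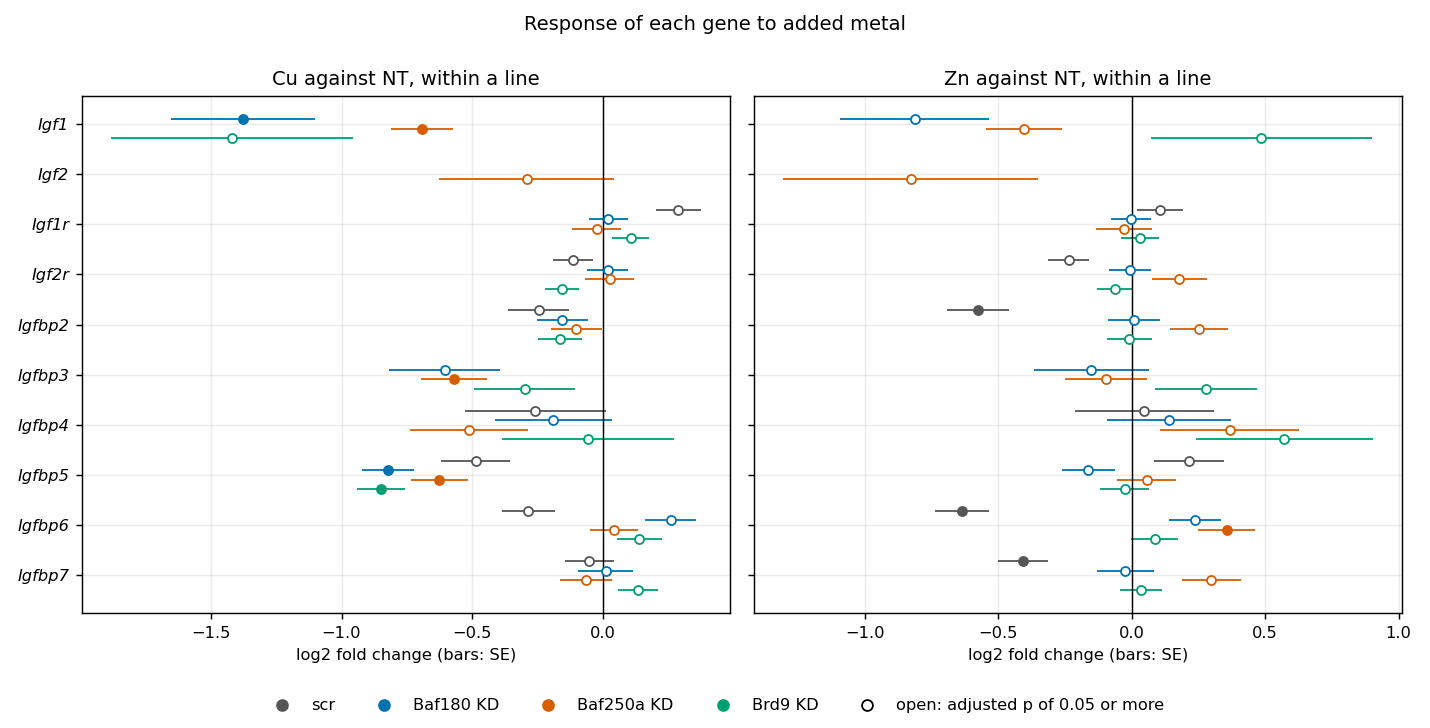
Log2 fold change of each gene with Cu or Zn against no added metal in each population (bars of 1 SE from edgeR); open points did not pass the test, and genes under the count filter have no point. With Cu, *Igfbp5* lay below 0 in all 4 populations, from -0.49 to -0.85, and with Zn *Igfbp2*, *Igfbp6* and *Igfbp7* lay below 0 in scr, at -0.58, -0.64 and -0.41.

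The rest of the IGF pathway was described from lists of genes. Of 7 further members of the insulin and IGF family only *Insr* was expressed enough to be tested. Of the signalling genes downstream of the receptors, 7 of 24 tested were higher and 6 lower in *Baf180* KD without metal, 11 and 8 of 25 in *Baf250a* KD, and 5 and 4 of 24 in *Brd9* KD. In all, 13 of 24, 19 of 25 and 9 of 24 were called, where 41%, 57.8% and 29.2% of all genes were. *Grb10*, named after its values were seen, was tested in *Baf250a* KD alone and counts among the higher genes there. It passed the count filter through the *Baf250a* KD libraries, at 0.881 ± 0.152 CPM against 0.0783 ± 0.0206 CPM in scr. *Pik3r1*, the regulatory subunit of PI3K, rose in the 3 populations, with log2 fold changes of 2.01, 2.69 and 0.91 (from 39.8 ± 5.72 CPM in scr to 158 ± 7.10, 257 ± 7.91 and 73.8 ± 1.97 CPM). *Rps6kb1*, the S6 kinase of the mTOR branch, rose by 0.84, 0.78 and 0.75. *Eif4ebp1*, the translation repressor that mTOR inhibits, fell, with log2 fold changes of -0.52, -1.23 and -0.40. Named after their values were seen, *Mtor* fell, with values of -0.65, -0.49 and -0.40, as did the adaptor *Grb2* (-0.55, -0.51 and -0.37).

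Of 13 genes that cut binding proteins or block the cutting, 7 were higher and 5 lower in *Baf180* KD, 8 and 3 in *Baf250a* KD, and 3 and 5 in *Brd9* KD, against the same 41%, 57.8% and 29.2% of all genes. The higher ones include *Stc1* in each population, which passed the count filter through the KD libraries. *Adam12*, a metalloprotease that cleaves IGFBP-3 and IGFBP-5, rose from 5.12 ± 0.415 CPM in scr to 35.9 ± 2.73, 76.8 ± 0.683 and 17.7 ± 0.973 CPM in *Baf180*, *Baf250a* and *Brd9* KD (log2 fold changes of 2.83, 3.91 and 1.81). *Mmp2*, a gelatinase, rose by 2.38, 3.73 and 2.14. Other proteases fell: *Pappa*, which encodes PAPP-A, with log2 fold changes of -1.60, -1.86 and -0.37, and *Htra1* from 222 CPM in scr to 99.7, 111 and 98.1 CPM, both named after their values were seen. *Stc2*, an inhibitor of PAPP-A, fell, with values of -1.52, -3.14 and -1.55, while *Stc1*, its relative, had 0 counts in both scr libraries and 1.48 ± 0.185, 3.39 ± 0.193 and 1.65 ± 0.133 CPM in the KD populations. Of the list of *Igf2* neighbours and IGF2 mRNA-binding proteins, 1 was higher and 1 lower of 5 tested in *Baf180* KD, 1 and 2 of 5 in *Baf250a* KD, and 0 and 1 of 4 in *Brd9* KD. That makes 2 of 5, 3 of 5 and 1 of 4 called, beside 41%, 57.8% and 29.2% of all genes. The higher one in *Baf180* and *Baf250a* KD was *Igf2bp1*, named after its values were seen. It was at 0.238 CPM in scr and at 0.957 and 1.08 CPM in these KD populations, through which it passed the count filter.

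For each of the 10 genes, the genes with the most similar pattern over the 12 condition means (root mean square difference of centred log2 CPM, among 9301 or 9302 genes of at least 10 CPM) are given as a description. *Smoc2* (0.46) and *Sfrp2* (0.55) came closest to *Igf1*, *Trabd2b* (0.43) and *Cemip* (0.55) to *Igf2*, *Nrp1* (0.0895) and *Dag1* (0.105) to *Igf1r*, and *Plat* (0.122) and *Palld* (0.140) to *Igf2r*. Of the binding proteins, *Igfbp2* was closest to *Stbd1* (0.125) and *Actn3* (0.151), *Igfbp3* to *Col6a1* (0.33) and *Nkd2* (0.43), *Igfbp4* to *Plscr2* (0.178) and *Kbtbd11* (0.218), *Igfbp5* to *Tnnt1* (0.201) and *Pknox2* (0.263), *Igfbp6* to *Isyna1* (0.152) and *Arhgap22* (0.167), and *Igfbp7* to *Itgb5* (0.122) and *Loxl3* (0.140). The distances were largest for *Igf1*, *Igf2* and *Igfbp3*, whose patterns span the most. Without the shallow library 15 of the 20 neighbours stayed, while *Fst* (0.41) took the place of *Trabd2b*, *Plpp1* (0.100) that of *Dag1*, *Apip* (0.122) that of *Palld*, *Ifitm3* (0.230) that of *Plscr2* and *Vamp5* (0.146) that of *Itgb5*.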

How the data were processed

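RNA-seq was done on 24 libraries of C2C12 myoblasts. Ribosomal RNA was removed with RNase H and libraries were strand-specific. The authors aligned reads to mm10 with STAR, kept unique mappers and assigned read pairs to genes with featureCounts. The deposited values are whole-number counts, not normalized. The authors also deposited DESeq2 tables with log2 fold changes, a mean count per gene, p-values and adjusted p-values of their comparisons, which were not used here.

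Samples were grouped by title. Counts were fitted in R 4.3.3 with edgeR 4.0.16 (TMM, filterByExpr with a minimum count of 10, glmQLFit and glmQLFTest), and a gene was called at a Benjamini-Hochberg adjusted p under 0.05 over all genes tested. KD was compared with scr, and KD with KD, on the 4 libraries concerned, metal responses on the 6 libraries of a population, and differences of responses on all 24. CPM are scaled by TMM over all 24 libraries. Exact 95% intervals of count ratios and the totals of 495778 to 75179394 counts give the counting precision only. Gene models, lengths and GC content came from GENCODE M21 (GRCm38), and promoters from RefSeq (GRCm38.p6), where the 10 genes matched 14 windows. The *Igf1* window lies within exons of the annotation and is not printed.

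Each result was recomputed with DESeq2 1.42.0, with RLE scaling, after laxer filters (genes of at least 1 count, or with a mean scaled count of at least 1), on other library sets, blocking on the replicate number, after adjusting each library for GC content and length (spline with 5 degrees of freedom), requiring a 1.5-fold change, and omitting 1 library in turn. Levels, shares and patterns without the shallow library were added after seeing the data. The fits were tested on simulated counts. The 10 genes and all lists were chosen with earlier results of these data known. Named pathway genes are those called in 1 direction in all 3 KD populations without metal, at most 4 a list by mean log2 fold change; 1 of them is not reported here. Each of the 10 genes is given with the 2 genes of the most similar pattern (prior count of 2). The CUT&RUN and metal measurements of the study were not analysed here.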

Additional observations from a re-analysis of the deposited data

Results flagged for a closer look

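The metal response differed between a KD population and scr, by the test of the difference itself (edgeR, all 24 libraries), in 12 cases. For Zn, *Igfbp2* differed by 0.69 in *Baf180* KD, 0.92 in *Baf250a* KD and 0.66 in *Brd9* KD on the log2 scale. *Igfbp6* differed by 0.98, 1.05 and 0.82 in the same populations, and *Igfbp7* by 0.49, 0.76 and 0.54. *Igf2r* differed by 0.33 in *Baf180* KD and by 0.48 in *Baf250a* KD. For Cu, *Igfbp6* differed by 0.60 in *Baf180* KD. In all 12 the response was higher in the KD population than in scr, and the 3 populations share the same scr libraries. After correcting for GC content and length, *Igfbp6* in *Baf180* KD (0.40) and *Baf250a* KD (0.50) and *Igf2r* in *Baf250a* KD (0.35), each for Zn, passed the threshold. The part of GC content in the other differences was not tested further.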

How the results depend on the processing

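With 2 replicates a group, the fits left out 1 library at a time and assumed that a lone library varies like the others of the fit. Over the 10 genes, 1839 of 1932 values under the other settings kept their side of the threshold. Of the rest, 69 lost a call, 23 gained one and 1 reversed. With 1 library left out, 2196 of 2307 values kept their side, 91 lost a call, 19 gained one and 1 reversed. A reversal is a change of sign in a value called in either fit, so changes of sign among uncalled values were not counted. The reversals were *Igfbp7* in the Zn response of *Baf180* KD minus scr (-0.042 after correcting for GC content and length) and *Igfbp4* in *Baf250a* KD against scr with Zn (-0.50 without *Baf250a* KD Zn replicate 1, which leaves a library with 1 count, and 1.25 without replicate 2).

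The Zn responses within populations gave 4 calls, which became 1 with the replicate block, 0 after correcting for GC content and length and 1 with a minimum fold change of 1.5. They ran from 1 (without scr NT replicate 2, scr Zn replicate 1 or scr Zn replicate 2) to 7 (without *Baf250a* KD Zn replicate 2). The differences of metal responses gave 12 calls, 3 after the correction, and from 6 (without scr NT replicate 2) to 12 with 1 library left out. The causes were not tested. The totals of the other 5 families of comparisons stayed within 1.5 times under every setting, though counts of single comparisons did not, as given beside them.

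Replicate numbers were not taken as pairs: deviations of same-numbered libraries correlated between -0.25 and 0.30 in the 4-library comparisons and between -0.25 and 0.35 within populations. All totals here are over the 10 genes, including *Igf1*, *Igf2* and *Igfbp3*. With the replicate block the calls went from 23 to 20 for KD against scr without metal, from 20 to 19 with Cu, from 23 to 24 with Zn, from 25 to 27 for KD against KD, from 6 to 8 for Cu responses, and stayed at 12 for the differences. Over the 7 genes above the filter in scr they went from 16 to 13, 14 to 13, 16 to 17, 18 to 19 and 3 to 4, stayed at 12, and for Zn responses went from 4 to 0. Without metal the block ended the calls of *Igfbp5* in *Baf250a* KD (adjusted p = 0.0970) and *Brd9* KD (0.0915) and of *Igfbp6* in *Baf250a* KD (0.0754). In 2 of 12 comparisons the correlation was under -0.1, and crossed numbers, added after seeing the data, gave 24 calls for KD against scr without metal. Depth limits *Igf1*, *Igf2* and *Igfbp3* in scr and all genes in *Baf250a* KD Zn replicate 2.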
